A study of Xenopus tropicalis with 132 samples.

Results

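The nuclear oxidative phosphorylation genes are the members described here: 72 of the 26550 targets in the deposited tables, taken by symbol. The rule kept every symbol that starts with nduf, cox4 to cox8, uqcr or atp5, and the succinate dehydrogenase subunits sdha, sdhb, sdhc and sdhd, and it used no measured value. It found 32 subunits and 7 assembly factors of complex I, 3 subunits of complex II, 5 members of complex III, 12 of complex IV and 13 of complex V. The gene for the iron-sulphur subunit of complex II, sdhb, was not found under that name, nor were ndufa2, ndufa4 and cox4i2, among others. Of 84 RefSeq genes whose symbol matches the rule, 70 were paired with a member and 2 stood under a bare LOC identifier. The members may therefore not cover every subunit gene.

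Oxidative phosphorylation takes place in the inner mitochondrial membrane. Complexes I and II pass electrons from NADH and succinate to ubiquinone, complex III hands them to cytochrome c, and complex IV passes them to oxygen. Complexes I, III and IV pump protons, and complex V, the ATP synthase, lets them flow back and makes ATP. Most subunits are encoded in the nucleus and imported, while a small set of core subunits is encoded by the mitochondrial genome. A frog egg is laid with a large store of maternal mitochondria, which are shared out among the cells of the early embryo.

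The libraries came from Xenopus tropicalis gastrulae of stage 10.5. Bulk RNA-seq was made on animal caps, the prospective ectoderm at the top of the embryo, from 8 groups of 2 libraries. In 7 groups the caps overexpressed mRNA of Foxb1, Eomes, Irx3, Otx2, Lhx8 or one of the pairs Foxb1+Eomes and Irx3+Otx2. The last group is labelled WI, a name the labels do not spell out, and it served as the reference. Foxb1 is a forkhead factor, Eomes a T-box factor, and Irx3, Otx2 and Lhx8 are homeodomain factors. The labels give no mRNA dose, strain or number of caps, and Otx2 alone is missing from the series' design text but present in the sample titles. Single-cell RNA-seq covered 100 cells picked from dissociated explants, 25 for each of 2 AC and 2 BL libraries. The design text names the explants as animal caps and dorsal marginal zone, but no label spells out BL. The labels do not say whether replicates came from separate clutches, so p-values measure the spread between these libraries, which may be technical.

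Bulk libraries held between 3234618 and 9218401 estimated counts. The injected factor was high in its own libraries: eomes, for example, stood at 727 and 342 TPM in the Eomes caps and at 1.83 and 2.60 TPM in WI. The 14 ectoderm markers were all detected in all WI libraries, with summed levels of 2597 to 2919 TPM. The library numbers in the deposited file names fall into 3 runs, called library sets here, and the labels do not say what the numbers mark. The 6 libraries of the first set are replicate 1 of WI, Foxb1, Irx3, Lhx8, Foxb1+Eomes and Irx3+Otx2. The 5 of the second set are replicate 2 of WI, Foxb1, Irx3, Lhx8 and Foxb1+Eomes. The 5 of the last set are both Eomes libraries, both Otx2 libraries and replicate 2 of Irx3+Otx2. No Eomes or Otx2 library shares a set with a WI library, so for these a set and a group cannot be told apart by a comparison within a set. In bulk samples, fewer cells of a type and less RNA per cell cannot be told apart.

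The members were among the more abundant transcripts of the caps. Their median level was 29.0 TPM, where the median of all tested genes was 11.2 TPM. TPM is a level corrected for transcript length and scaled to a common total, so it can be set side by side between genes. A mean of at least 100 TPM was reached by 8 members, and 11 members stayed under 10 TPM. The 6 highest members held 45.2% of the summed member TPM. Of the 72 members, 71 had counts in all 16 libraries and were tested. The exception was cox6a2, the form of subunit 6a found in heart and muscle of mammals, which is listed at 0 in every bulk library and in every cell.

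Complex IV, cytochrome c oxidase, held the largest share of the summed member TPM, 36.7%. Its nuclear members are small subunits around a core that is mitochondrially encoded. The highest member of all was cox6b1, a subunit on the outer face of the complex, with a lowest level of 412, a median of 613 and a highest level of 895 TPM over the 16 libraries. The second in the complex was cox7a2, which ranged from 123 to 353 TPM around a median of 182. At the other end stood cox7a2l, a relative of subunit 7a that helps to join complexes III and IV into supercomplexes in mammals, with 8.97 to 31.6 TPM. The pair of subunit 5b genes had like levels, cox5b.1 with a median of 38.0 TPM and cox5b.2-like with 35.0 TPM. As near-identical copies can share reads, the value of either copy alone is uncertain.

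Complex I, the NADH dehydrogenase, has the largest number of members and held 23.2% of the member TPM, from a median member level of 25.6 TPM. Its highest subunits were the accessory subunits ndufb9 and ndufa6, with medians of 86.1 and 79.1 TPM. Its lowest were the accessory subunit ndufs6, with a median of 5.46 TPM, and ndufv2, a core iron-sulphur subunit, with 7.76 TPM. Another core subunit of the NADH-binding module, ndufv1, had 46.8 TPM, and the TPM ratio of ndufv1 to ndufv2 lay between 3.85 and 9.59 in every library. Their listed target lengths differ, with 1623 bases for ndufv1 and 3661 for ndufv2. In scaled CPM, counts relative to library size with no correction for length, WI had 62.7 and 78.5 for ndufv1. For ndufv2 it had 40.4 and 38.2. The part of listed length in the ratio was not tested. The assembly factors, which help to build complex I but are not part of it, were lower, with a median of 10.6 TPM. Among them ndufaf2-like stood highest in TPM, with a median of 49.4 TPM, and ndufaf6-like lowest, with 0.127 to 6.04 TPM. The target of ndufaf2-like is listed at 330 bases. Its mean scaled CPM over the bulk libraries was 8.23, under the 18.4 of ndufaf1, so that the top place depended on the scale.

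Complex II, which also works in the citric acid cycle, held 1.28% of the member TPM. Its flavoprotein subunit sdha had a median of 27.0 TPM, and the membrane anchors sdhc and sdhd had medians of 9.68 and 4.65 TPM. In complex III, the cytochrome bc1 complex, the Rieske iron-sulphur protein uqcrfs1 had a median of 351 TPM, within a range of 153 to 564. It stood above the small subunit uqcrq, with 105 TPM, and the core proteins uqcrc1 and uqcrc2, with 27.2 and 14.5 TPM.

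In complex V the catalytic beta subunit atp5b had a median of 273 TPM, within a range of 149.7 to 438, and its partner in the catalytic head, the alpha subunit atp5a1, had 55.5 TPM. The ratio of atp5b to atp5a1 was at least 3.35 and at most 7.10 over the libraries. The c subunit, which forms the rotating ring, was covered by the genes atp5g1 and atp5g3, and no atp5g2 was among the members. The level of atp5g3 exceeded that of atp5g1 in every library, by 2.06 to 3.89 times. The lowest tested member was atp5s, a coupling factor, with a median of 1.09 TPM.

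**Figure D1:**
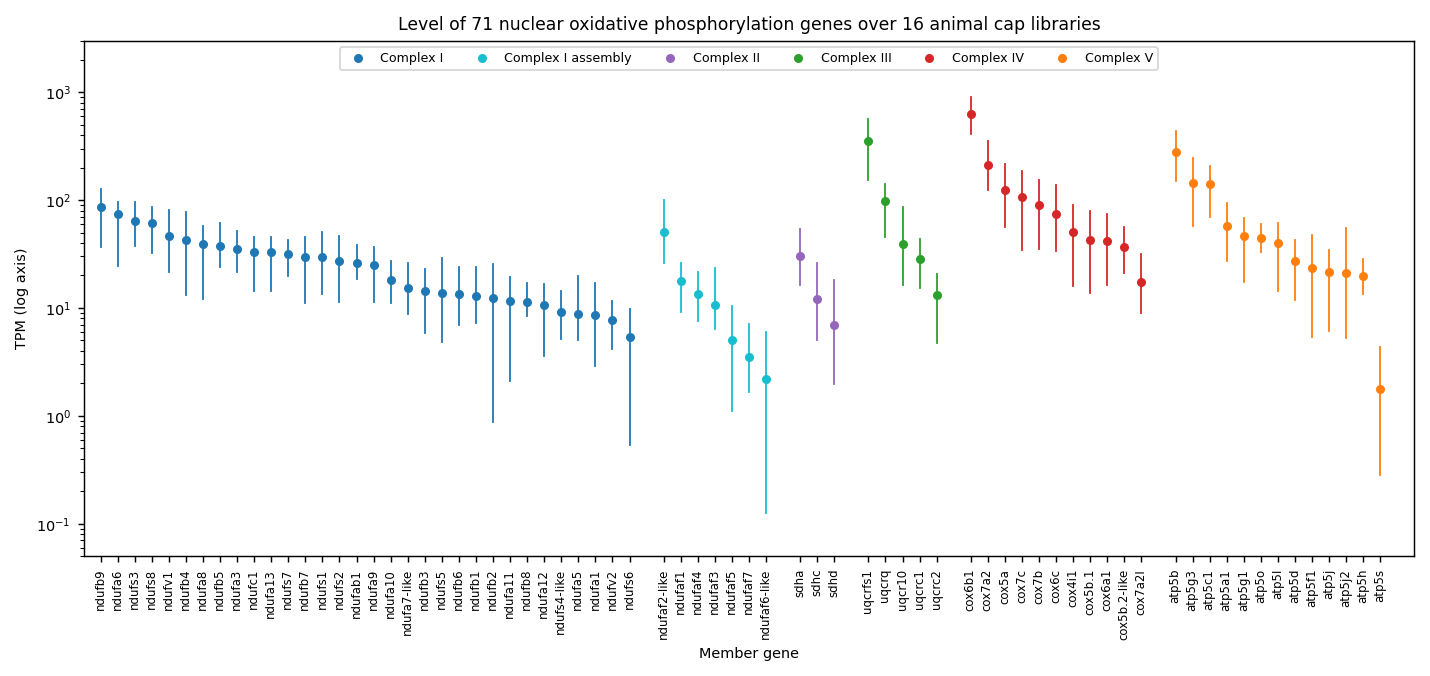
Level of each of the 71 tested members in TPM on a log axis, grouped by complex and ordered by level within each. Points are means over the 16 bulk libraries and bars run from the lowest to the highest library. The levels run from cox6b1, with a mean of 622 TPM, down to atp5s.

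The median spread of members between libraries was near that of all tested genes, in a comparison that was not matched for level. The SD of log2 CPM (counts relative to library size, scaled with TMM factors) over the 16 libraries had a median of 0.49 for members and 0.54 for all 14176 tested genes. The steadiest members were atp5o, the stalk subunit OSCP, with an SD of 0.23, ndufaf1 with 0.24, ndufa10 with 0.25 and ndufs4-like with 0.27. The most variable are ranked among members with a mean log2 CPM of at least 2. They were ndufs5 with 1.08, ndufb4 with 1.07, atp5j2 with 1.03 and cox5b.1 with 0.88. Below that level ndufb2 had an SD of 1.03 and atp5s one of 0.90. The genes atp5o and atp5j2 encode subunits of one enzyme, and yet atp5o lay between 33.3 and 60.3 TPM while atp5j2, subunit f, lay between 5.26 and 54.7 TPM.

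Summed over members, the share of estimated counts was 0.317% and 0.2995% in WI. It was 0.283% and 0.249% in Eomes, and 0.281% and 0.249% in Otx2. Both groups lay below WI without overlap, and their mean differences of -0.0425 and -0.0433 percentage points were larger than the spread in any of the 3 groups. An exact two-sided permutation test gave p = 0.3333 for each, the smallest value that 2 against 2 libraries allow. Foxb1, with 0.261% and 0.294%, also lay below WI, with the same p, and Lhx8, with 0.2845% and 0.376%, surrounded it.

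The pairs and Irx3 had replicates far apart. The share was 0.180% and 0.377% in Foxb1+Eomes, 0.174% and 0.296% in Irx3+Otx2, and 0.267% and 0.413% in Irx3. In each of these, replicate 1 was the low one and belonged to the first library set. Irx3+Otx2 lay below WI in both libraries, again with an exact permutation p of 0.3333. Shares ran from 0.174% to 0.317% in the first set, from 0.294% to 0.413% in the second and from 0.249% to 0.296% in the last.

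The lower share in Eomes and Otx2 was not seen in the share of summed TPM. The members' share of summed TPM was 0.383% and 0.375% in Eomes, 0.375% and 0.373% in Otx2, and 0.428% and 0.337% in WI, so that WI surrounded both. A permutation test of these values (exact, two-sided) gave p = 1 for Eomes and for Otx2. With 2 against 2 libraries this test cannot decide whether a difference is present. On the TPM scale the change of 58 of 71 members lay below that of the median gene in Eomes, and likewise in Otx2.

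**Figure D2:**
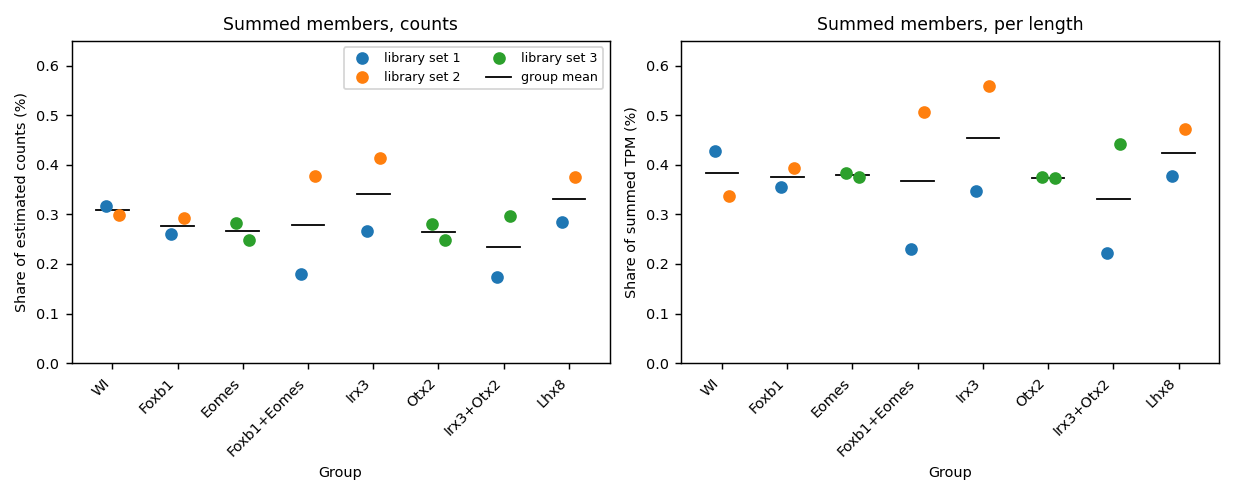
Share of the summed members in each bulk library, in percent of estimated counts on the left and in percent of summed TPM on the right, by group. Points are libraries coloured by library set and lines are group means. On the left the Eomes and Otx2 libraries lie below both WI libraries, and on the right they lie between them.

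The question of the injections is which genes the factors change in prospective ectoderm. Against WI, most members had lower normalised counts in Eomes, Otx2 and Irx3+Otx2 caps. In Eomes caps 60 of 71 members had a negative fitted log2 change, with a median of -0.56, where the median of all tested genes was 0.01. In Otx2 caps 59 did, with a median of -0.50 against 0.01. In Irx3+Otx2 caps 59 did as well, with a median of -0.52 against 0.07. These 3 comparisons share the WI libraries, and their counts are therefore not independent of each other. Both Eomes libraries, both Otx2 libraries and replicate 2 of Irx3+Otx2 also share a library set that holds no WI library. For these libraries, a change against WI cannot be told apart from a difference between sets.

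No member passed edgeR's quasi-likelihood test at a Benjamini-Hochberg adjusted p under 0.05 in any of these groups. Among all genes edgeR called 28 of 14176 in Eomes, or 0.198%, none in Otx2, or 0%, and 18 in Irx3+Otx2, or 0.127%. At an unadjusted p under 0.05, 16 members were lower in Eomes, or 22.5%, where 7.9% of all genes were lower. Another 3 were higher, or 4.23%, where 10.8% of all genes were higher. In Otx2, 13 members were lower, or 18.3% against 7.03% of all genes, and 2 were higher, or 2.82% against 9.6%. In Irx3+Otx2, 9 members were lower, or 12.7% against 6.17% of all genes, and 1 was higher, or 1.41% against 6.66%. DESeq2 called 3 of the 70 members with an adjusted p in Eomes, all lower, where it called 6.62% of all genes with an adjusted p. It called 2 of 70 in Otx2, where it called 3.59% of all genes, and 1 of 71 in Irx3+Otx2, where it called 1.89%. In none of these groups was the DESeq2 share of members above that of all genes.

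The direction depended on the scale in one respect. In deposited TPM without a scaling factor, the median of all tested genes was itself 0.66 log2 units higher in Eomes than in WI, 0.59 higher in Otx2 and 0.35 higher in Irx3+Otx2. The members' median was 0.16 in Eomes, 0.17 in Otx2 and -0.12 in Irx3+Otx2 on that scale. Relative to the median gene these are differences of -0.50, -0.42 and -0.47, close to the values from scaled counts. On the TPM scale 58 of 71 members lay below the median gene in Eomes, 58 in Otx2 and 60 in Irx3+Otx2. The changes below are changes relative to the typical gene, and not changes per cell.

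By complex, the nuclear subunits of cytochrome c oxidase stood lowest. In Eomes caps the median log2 change was -1.05 over the 11 tested members of complex IV, -0.75 over complex III, -0.65 over the 32 complex I subunits and -0.46 over the 13 members of complex V. It was 0.22 over the 7 assembly factors of complex I and 0.39 over the 3 members of complex II. The order was alike in Otx2 caps, apart from complexes I and III, with -1.06 for complex IV, -0.53 for complex III, -0.57 for complex I, -0.48 for complex V, 0.28 for the assembly factors and 0.44 for complex II. In Irx3+Otx2 caps complex IV had -0.91 and the other 5 sets lay between -0.56 and 0.19. Sorted by role, accessory subunits had a median of -0.86 in Eomes and core subunits -0.38, while assembly factors, including those of other complexes, had 0.60. The sets also differed in target length. Median lengths of tested members were 627 bases in complex IV, 1092 in III, 931 in I, 903 in V and 1644 in II. They were 1137 bases for the assembly factors of complex I, 746 for accessory subunits and 1601 for core subunits. The part of length in this order was not tested. No difference between complexes or roles was tested, since the members are not replicates of each other.

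The member with the lowest adjusted p was ndufb4, an accessory subunit in the membrane arm of complex I. Its scaled CPM were 27.6 and 21.3 in WI, 6.93 and 3.06 in Eomes, 6.33 and 4.55 in Otx2, and 7.26 and 5.23 in Irx3+Otx2. All 6 injected libraries lay below both WI libraries, with a gap larger than the difference between replicates in any of these groups. The log2 change was -2.30 ± 0.49 (SE) in Eomes, with an edgeR adjusted p of 0.0879, so that it missed the threshold. DESeq2 gave an adjusted p of 0.00149 for the same change, and over the 11 alternatives tried the adjusted p ran from 0.000591 to 0.992. In Otx2 the change was -2.17 ± 0.49 with an edgeR adjusted p of 0.158, 0.00563 from DESeq2 and a range of 0.00187 to 1 over the alternatives. In Irx3+Otx2 it was -1.96 ± 0.48, with 0.152 from edgeR, 0.0170 from DESeq2 and a range of 0.00612 to 0.726. Deposited TPM of ndufb4 were 67.3 and 50.5 in WI, 25.2 and 13.1 in Eomes, 20.98 and 19.2 in Otx2, and 15.7 and 23.1 in Irx3+Otx2. Replicate 1 of Foxb1+Eomes, with 22.2 TPM, was as low, and replicate 2, with 55.8 TPM, was not.

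Within complex IV, cox7a2 had 146 and 72.3 scaled CPM in WI and 39.1 and 29.1 in Eomes. The change of -1.68 ± 0.41 had an edgeR adjusted p of 0.106, 0.00854 from DESeq2 and a range of 0.00326 to 0.992 over 11 alternatives. In Otx2, with 49.1 and 30.0 CPM, the change was -1.47 ± 0.41, with 0.169 from edgeR, 0.0339 from DESeq2 and a range of 0.0185 to 1. The WI libraries differed by about as much as the groups, since WI 2 lay closer to Eomes 1 than to WI 1. Subunit 7b, cox7b, picked after its values were seen because DESeq2 called it, had 81.4 and 38.6 CPM in WI against 24.5 and 18.5 in Eomes. Its change was -1.48 ± 0.46, with an adjusted p of 0.136 from edgeR, 0.0425 from DESeq2 and a range of 0.0173 to 0.992.

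The copies of subunit 5b differed in their values. Scaled CPM of cox5b.1 were 31.8 and 19.6 in WI and 8.39 and 6.005 in Eomes, a log2 change of -1.84 ± 0.65 with an edgeR adjusted p of 0.166. For cox5b.2-like they were 18.9 and 18.4 in WI and 17.9 and 17.3 in Eomes, a change of -0.08 ± 0.36. The ratio of the copies in TPM ran from 0.400 to 2.98 over the libraries. How reads were divided between these copies is not known from the files, and their difference was not tested.

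For cox6b1 the scaled CPM were 205 and 144 in WI and 100.01 and 81.8 in Eomes, a log2 change of -0.94 ± 0.36 with an edgeR adjusted p of 0.188. The Rieske protein gene uqcrfs1 had 604 and 441 CPM in WI and 323 and 257 in Eomes, a change of -0.85 ± 0.39 with 0.265. The beta subunit gene atp5b had 429 and 523 CPM in WI and 558 and 352 in Eomes, so that the groups overlapped, with a change of -0.07 ± 0.39. Other members with low values in Eomes had one high WI library: ndufa5 had 19.5 and 4.75 CPM in WI against 4.197 and 2.59, and ndufs5 had 39.3 and 7.44 against 7.66 and 8.24.

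Members on the other side were fewer. The membrane anchor sdhd had 4.74 and 7.64 scaled CPM in WI, 13.5 and 14.7 in Eomes, 13.2 and 14.7 in Otx2, and 7.80 and 17.3 in Irx3+Otx2. Its log2 change was 1.18 ± 0.48 in Eomes, with an edgeR adjusted p of 0.212, and 1.16 ± 0.48 in Otx2, with 0.254. The assembly factor ndufaf5, which modifies a complex I subunit in human cells, had 2.51 and 5.78 CPM in WI, 11.3 and 11.9 in Eomes, 10.3 and 12.0 in Otx2, and 8.76 and 10.2 in Irx3+Otx2. None of these overlapped WI, and the change in Eomes was 1.46 ± 0.50 with an edgeR adjusted p of 0.155. For cox7a2l the values were 25.9 and 24.8 in WI and 42.0 and 40.3 in Eomes, a change of 0.70 ± 0.29 with an adjusted p of 0.230. The supercomplex factor thus ran against the other 10 tested members of complex IV.

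**Figure D3:**
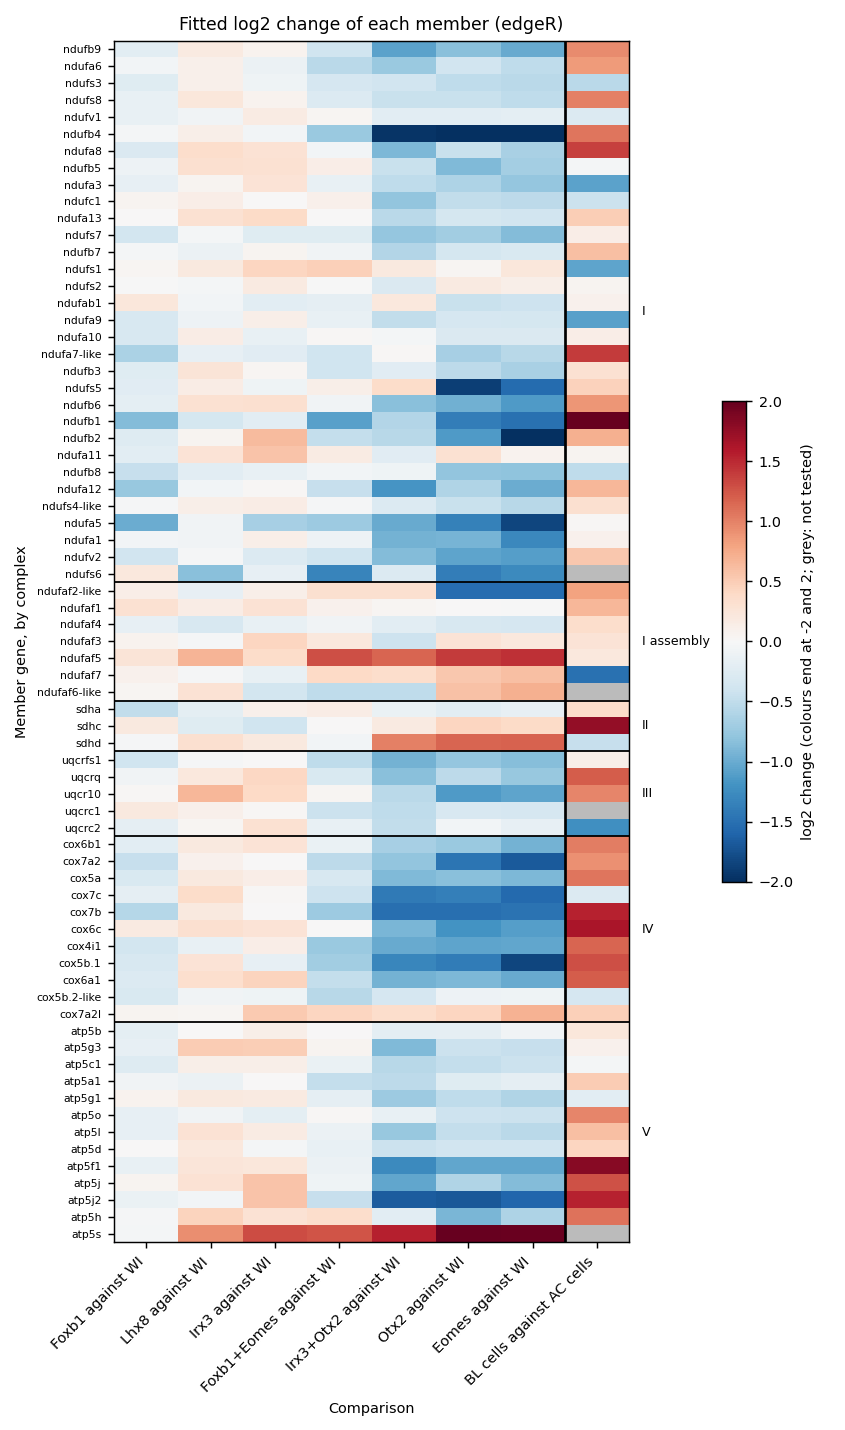
Fitted log2 change of each member, rows by complex in order of level, in the 7 injected groups against WI and in BL against AC cells. Red is higher in the group named first, blue is lower, and colours end at -2 and 2; grey cells were not tested. Blue fills most of the Eomes, Otx2 and Irx3+Otx2 columns, with ndufb4 at -2.30, -2.17 and -1.96, while sdhd and ndufaf5 are red.

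Members are short transcripts, and shorter members had the lower values in these caps. The median target length was 931.5 bases for members and 2136 bases for all tested genes. In Eomes, all genes of 600 to 900 bases had a median log2 change of -0.36 and those over 2000 bases one of 0.13. The 13 members of 600 to 900 bases had a median of -0.56, and the 12 members of 450 to 600 bases had -1.14, where all genes of that length had -0.30. Members thus lay further down than genes of like length in that range. Over the 71 members, Spearman's rho between length and change was 0.55 in Eomes, 0.53 in Otx2 and 0.47 in Irx3+Otx2, given as a description because members share libraries.

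Under 900 bases, 30 of 31 members were lower in Eomes, with a median of -0.90, and from 900 bases on 30 of 40 were lower, with a median of -0.35. When a smooth trend of each library's counts with length was taken out, the member median became -0.29 in Eomes, -0.28 in Otx2 and -0.30 in Irx3+Otx2. Of the 71 members, 58 in Eomes, 59 in Otx2 and 54 in Irx3+Otx2 were then on the lower side. With that term ndufb4 still had a log2 change of -1.98 in Eomes and cox7a2 one of -1.34, while sdhd had 1.204 and ndufaf5 1.44. What part length has in the members' change beyond this term was not tested.

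**Figure D4:**
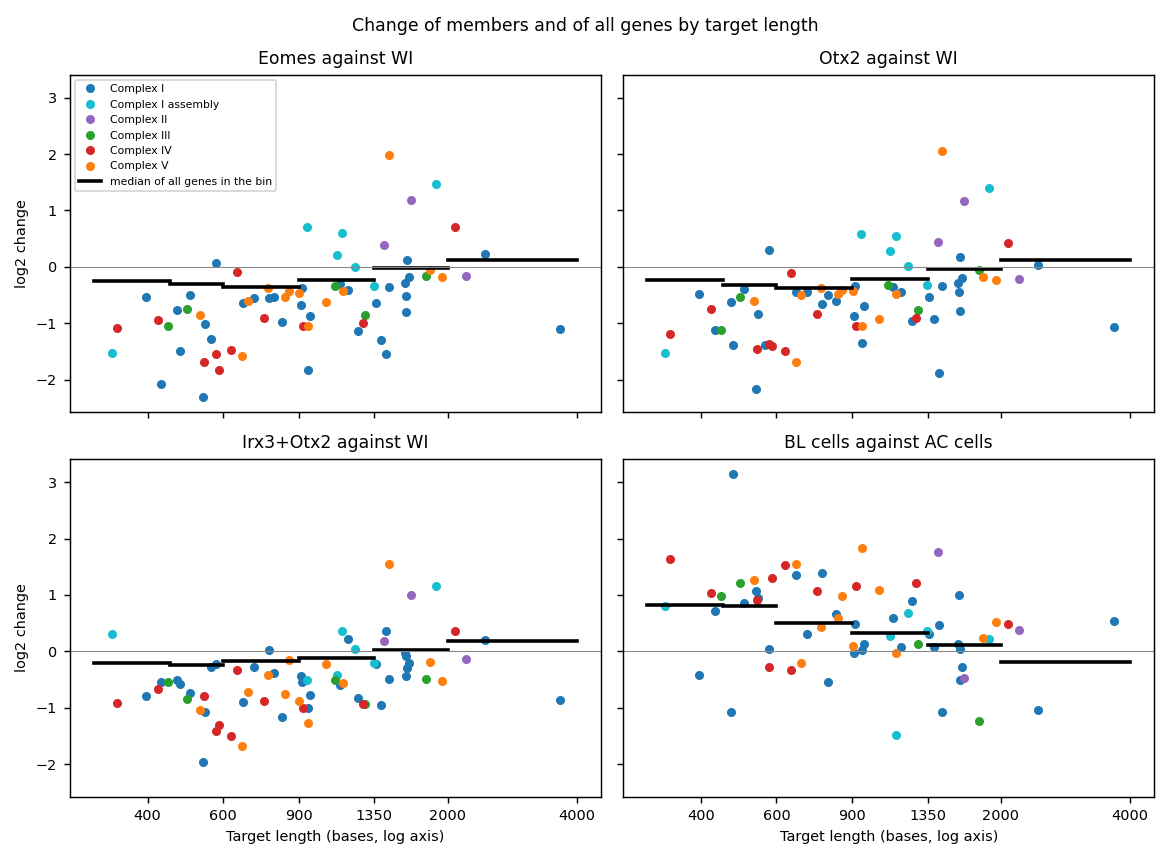
Fitted log2 change of each member against its target length in bases on a log axis, for 3 cap groups against WI and for BL against AC cells. Points are members coloured by complex, and black bars are medians of all tested genes in each length bin. In caps short genes lie lower than long ones, from -0.36 to 0.13 over the bins in Eomes, and in BL against AC cells the order is the reverse, from 0.82 to -0.19.

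Genes around the pathway gave a mixed picture. The mitochondrial ribosomal protein genes, 64 in number, had a median log2 change of -0.33 in Eomes, -0.34 in Otx2 and -0.23 in Irx3+Otx2, with no call. With an unadjusted p under 0.05, 4 of them were lower in Eomes, where 7.9% of all genes were, 10 in Otx2, where 7.03% were, and 4 in Irx3+Otx2, where 6.17% were. The 7 tested ATP carriers and porins had medians of -0.43, -0.42 and -0.53, with no call. The citric acid cycle genes, 14 in number, had medians of 0.02, 0.09 and -0.18, and 14 tested glycolysis genes had 0.15, 0.16 and -0.10. In Irx3+Otx2, 8 genes of each list were lower. The medians of all tested genes were 0.01, 0.01 and 0.07. The 18 assembly factors outside the rule had -0.13, -0.15 and 0.03. Cytoplasmic ribosomal protein genes, lay furthest down. Their median over 71 tested genes was -1.55 in Eomes, -1.43 in Otx2 and -0.97 in Irx3+Otx2, with 60, 59 and 35 lower at an unadjusted p under 0.05 and none called by edgeR.

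Somatic cytochrome c, cycs, the carrier between complexes III and IV, had 439 and 280 TPM in WI and 265 and 219 TPM in Eomes. Its log2 change was -1.36 ± 0.40 in Eomes with an edgeR adjusted p of 0.128. The one mitochondrially encoded gene found, COX3, a core subunit of complex IV, had 4056 and 6266 TPM in WI, 8802 and 7985 in Eomes, and 7534 and 8091 in Otx2. On the TPM scale the median of all tested genes was itself 0.66 log2 units higher in Eomes and 0.59 in Otx2. The fitted change of COX3 in scaled counts was -0.001 in Eomes, -0.02 in Otx2 and 0.21 in Irx3+Otx2. The nuclear members of complex IV had medians of -1.05, -1.06 and -0.91. That difference was not tested. The 11 tested regulators of mitochondrial biogenesis had medians of -0.15 in Eomes, with 7 lower, and -0.15 in Otx2, with 6 lower, and none was called. Among them the coactivator ppargc1a, a regulator of mitochondrial biogenesis in mammals, had 1.14 and 2.26 TPM in WI, 7.43 and 16.2 in Eomes, and 7.23 and 16.0 in Otx2. These groups did not overlap, and the changes of 1.95 ± 0.52 and 1.98 ± 0.52 had edgeR adjusted p of 0.106 and 0.161. The factor gabpa, which binds promoters of many members in mammals, had changes of -0.22 and -0.25, within their standard errors of 0.26.

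Marker levels of several cell types differed in the same caps. The 14 ectoderm markers summed to 2597 to 2919 TPM in WI, 1591 to 1740 in Eomes, 1664 to 1830 in Otx2 and 941 to 1488 in Irx3+Otx2. The 10 mesoderm markers, eomes included, summed to 45.8 to 48.8 TPM in WI, 686 to 907 in Eomes, where the injected mRNA itself is counted, and 95.0 to 132.5 in Otx2. The 11 organizer markers were 26.7 to 38.2 TPM in WI, 86.3 to 253 in Eomes, 393 to 429 in Otx2 and 296 to 1248 in Irx3+Otx2. This list holds otx2, whose level with the injected mRNA was 318 and 284 TPM in Otx2 and 256 and 1088 TPM in Irx3+Otx2. The 12 endoderm markers were 10.6 to 21.3 TPM in WI, 153 to 224 in Eomes and 35.3 to 40.2 in Otx2. The higher sums in Otx2 were not shared by most markers of the endoderm and mesoderm lists in scaled counts. Against WI, 5 of 11 tested endoderm markers were higher in Otx2 and 6 lower, with a median log2 change of -0.10. Of the mesoderm markers 4 were higher and 5 lower, with a median of -0.07. The 10 neural plate markers were 317 to 419 TPM in WI, 968 to 1022 in Eomes and 948 to 1121 in Otx2. In scaled counts 7 of them were higher and 3 lower in Eomes, with a median log2 change of 0.23. In Otx2 8 were higher and 2 lower, with a median of 0.85. Among defining genes, cer1 was at 0 in WI, Eomes and Otx2, and also in AC 1, AC 2 and BL 1. Scaled CPM of sox17a were 1.67 and 2.27 in WI, 23.2 and 14.6 in Eomes, and 4.28 and 4.19 in Otx2. For chrd they were 1.95 and 2.68 in WI, 5.84 and 7.18 in Eomes, and 10.4 and 10.3 in Otx2. For t they were 19.2 and 6.82 in WI, 57.1 and 212 in Eomes, and 11.1 and 8.62 in Otx2, within the WI range. The part of these shifts in cell type in the members' change was not tested.

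Foxb1+Eomes caps, which also received Eomes, had a member median closer to WI, from replicates that lay far apart. Their eomes level was 215 and 169 TPM, where Eomes caps had 727 and 342 TPM. The part of that level in the difference was not tested. Against WI the member median was -0.13, with 48 of 71 lower, and edgeR called no member while it called 49 of 14176 genes, or 0.346%. With an unadjusted p under 0.05, 1 member was higher, or 1.41%, where 3.46% of all genes were higher, and DESeq2 called none. That member was ndufaf5, with 13.8 and 6.98 scaled CPM against 2.51 and 5.78, a change of 1.29 ± 0.50 with an edgeR adjusted p of 0.873. Among members with an average log2 CPM from the fit of at least 2, the lowest was ndufb1, with -1.09 ± 0.52. Next came ndufb4, with 9.06 and 19.9 CPM against 27.6 and 21.3, and a change of -0.74 ± 0.47. Over all tested members the lowest change was -1.33. The median was -0.67 without replicate 2 of the pair and 0.21 without replicate 1.

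No library of the pair shares a library set with an Eomes library, so a set and a group cannot be told apart in that comparison. Set against Eomes alone, the pair had 57 of 71 members on the higher side. Their median was 0.40, where that of all genes was 0.02. EdgeR called none, against 0.0423% of all genes, and DESeq2 none. At an unadjusted p under 0.05, 6 members were higher, or 8.45% against 7.91% of all genes, and 1 was lower, or 1.41% against 7.53%, so that the share was near the background. Without replicate 2 of Foxb1+Eomes the median was -0.15, and without replicate 1 it was 0.73. The direction thus changed with the library left out. Against Foxb1 the median was 0.00, edgeR called no member against 0.0705% of all genes, and no member passed an unadjusted p under 0.05 where 4.06% of all genes did. DESeq2 called no member there. Leaving out replicate 1 or replicate 2 of the pair gave medians of 0.35 and -0.47.

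Irx3+Otx2 was compared with its single factors in the same way. Against Irx3, 59 of 71 members were lower, with a median of -0.61. The median was -0.90 without replicate 1 of Irx3 and -0.33 without replicate 2. EdgeR called none, against 0.0494% of all genes. Past an unadjusted p of 0.05, 18 members were lower, or 25.4% against 7.46% of all genes, and none was higher. DESeq2 called ndufb4 alone, where it called 1.92% of all genes. Its scaled CPM were 24.9 and 21.9 in Irx3 and 7.26 and 5.23 in the pair, a change of -1.90 ± 0.48 with an edgeR adjusted p of 0.155 and 0.0234 from DESeq2. Subunit f, atp5j2, had 13.7 and 28.3 CPM in Irx3 and 3.42 and 5.38 in the pair, a change of -2.24 ± 0.81 with an edgeR adjusted p of 0.262.

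Against Otx2 the member median was -0.01, and edgeR called none, as it did over all genes, 0%. With an unadjusted p under 0.05, 2 members were higher, or 2.82% against 3.6% of all genes, and DESeq2 called none. These were ndufs5 and ndufaf2-like, and both rested on replicate 1 of the pair. For ndufs5 the scaled CPM were 53.8 and 5.82 in Irx3+Otx2 and 6.33 and 6.22 in Otx2, and for ndufaf2-like they were 19.2 and 3.34 against 3.42 and 2.87.

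In Foxb1, Irx3 and Lhx8 caps members stayed closer to WI. The median was -0.16 in Foxb1, with 52 of 71 lower, 0.11 in Irx3, with 50 higher, and 0.11 in Lhx8, with 45 higher. No member was called by edgeR or DESeq2, and no member passed an unadjusted p under 0.05. Over the whole table edgeR called 0% in Foxb1, 0% in Irx3 and 0.00705% in Lhx8, and 0.6%, 1.38% and 1.5% passed the unadjusted level. For Irx3 the median was 0.37 without replicate 1 and -0.14 without replicate 2. For Lhx8 it was 0.28 and -0.088, and for Foxb1 -0.0063 and -0.32, without replicate 1 and 2 of the group. The furthest members are given among those with an average log2 CPM from the fit of at least 2. They were ndufa5 in Foxb1, with -0.99 ± 0.67, ndufa5 in Irx3, with -0.67 ± 0.66, and ndufaf5 in Lhx8, with 0.68 ± 0.51. Over all tested members the changes reached 1.31 in Irx3 and 0.93 in Lhx8. For ndufa5 the direction turned when WI 1 was left out, to 0.35 in Foxb1 and 0.66 in Irx3, since WI 1 had 19.5 CPM and WI 2 had 4.75.

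Library against library within a set, the injected groups lay on different sides of WI. In the first set the member median was below WI 1 in all 5 injected libraries, at -0.77 in Foxb1+Eomes, -0.65 in Irx3+Otx2, -0.39 in Foxb1, -0.18 in Irx3 and -0.16 in Lhx8. In the second set it was above WI 2 in all 4, at 0.39 in Irx3, 0.33 in Lhx8, 0.26 in Foxb1+Eomes and 0.03 in Foxb1. All comparisons in a set share one WI library. Between replicates of Foxb1+Eomes the member median differed by 0.92 log2 units, which is more than the median change of any group against WI. Within Eomes and Otx2, whose replicates lie in one set, replicate 2 was lower by 0.24 and 0.35. When the set entered the fit as a term, tied to WI only through the Irx3+Otx2 libraries, the member median was -0.61 in Eomes and -0.55 in Otx2.

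In single cells, reads in genes summed to between 755591 and 3002901 in a library, and single cells held 25 to 375503. Each cell was a sample of its own, with no cell barcodes to compare, and no pair of cells had the same counts. The member share of reads was 0.639% in AC 1, 0.690% in AC 2, 0.759% in BL 1 and 0.921% in BL 2. Both BL libraries lay above both AC libraries. The difference of 0.176 percentage points had p = 0.3333 in an exact two-sided permutation test, the smallest that 2 against 2 allow, and the BL libraries differed from each other by almost as much. Markers separated the labelled groups: gsc had 690.0 and 2559 scaled CPM in BL and 0 in AC, and chrd had 310.2 and 1136 in BL against 1.80 and 0. Ectoderm markers summed to 3752 to 4650 CPM in AC and 2018 to 2022 CPM in BL.

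Cell by cell the shares overlapped widely. Among the 85 cells of at least 10000 reads, the share ran from 0.269% over a median of 0.645% to 1.08% in AC 1, and from 0.296% over 0.672% to 1.05% in AC 2. It ran from 0.424% over 0.745% to 1.29% in BL 1, and from 0.457% over 0.934% to 1.35% in BL 2. Cells are not replicates, and these are descriptions. A cell of that depth had reads of a median of 34.5 members in AC 1, 37 in AC 2, 28 in BL 1 and 26 in BL 2. With each cell thinned to 10000 reads the medians were 19, 25.5, 19.5 and 21, so that AC and BL no longer lay apart. The most widely detected member was cox6b1, with a read in 91 of 100 cells, followed by uqcrfs1 in 87.

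**Figure D5:**
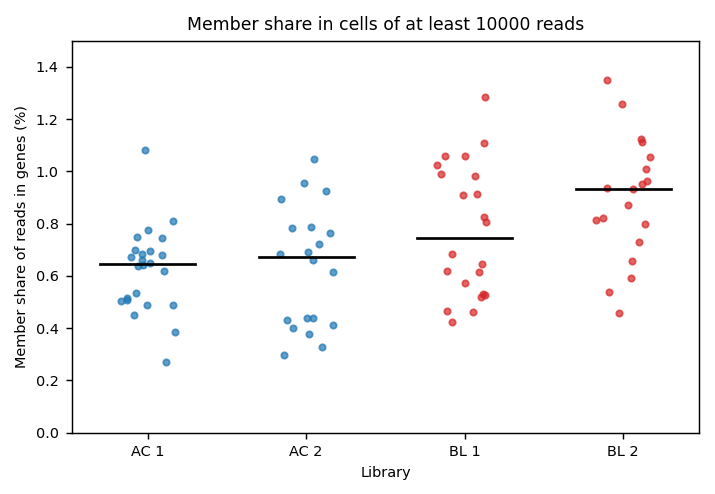
Member share of reads in genes, in percent, for each of the 85 cells of at least 10000 reads, by library. Points are cells, with random horizontal offset, and lines are medians. The medians lie between 0.645% in AC 1 and 0.934% in BL 2, and the ranges of the 4 libraries overlap.

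In sums over the 25 cells of each library, 52 of 67 tested members were higher in BL than in AC, with a median log2 change of 0.48 where that of all genes was -0.02. The median was 0.20 without BL 2 and 0.69 without BL 1. EdgeR called no member, and 0% of the 8898 genes tested, and DESeq2 called none of the 66 members to which it gave an adjusted p. Reaching an unadjusted p under 0.05, 4 members were higher, or 5.97%, where 2.8% of all genes were higher. They were uqcrq, ndufa8, atp5j2 and atp5f1, of which ndufa8 was picked after its values were seen. For uqcrq the scaled CPM were 112 and 139 in AC and 250.5 and 328 in BL, a change of 1.21 ± 0.41 with an edgeR adjusted p of 0.810. For atp5f1, the b subunit of the stator, they were 14.98 and 27.2 in AC and 43.1 and 106 in BL, a change of 1.83 ± 0.77 with 0.895. Members at the other end were uqcrc2, with 50.6 and 51.6 CPM in AC and 20.5 and 23.1 in BL, and ndufaf7, with 27.9 and 37.1 against 13.5 and 9.25. The largest fitted change, 3.14 ± 1.81 for ndufb1, rested on 2 reads in each AC library.

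Complex IV, which stood lowest in Eomes caps, stood highest in BL cells. The median log2 change was 1.08 over complex IV, 0.56 over complex V, 0.55 over complex III, 0.37 over complex II, 0.31 over the assembly factors and 0.30 over complex I. Length moved with it: all genes under 450 bases had a median of 0.82 and those over 2000 bases one of -0.19. The 30 members under 900 bases had a median of 0.93 and the 37 longer ones 0.23. With the length trend taken out the member median was 0.11, with 38 of 67 members higher. The cytoplasmic ribosomal protein genes had a median of 0.78 and the mitochondrial ones 0.49. The part of length, and of read depth, which was lower in BL 2 than in any other library, was not tested further.

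Levels in caps and in cells ranked members in like order. Over the 72 members Spearman's rho between mean CPM of the 16 bulk libraries and mean CPM of the 4 single-cell sums was 0.80, a description over genes that are not independent. The largest gaps were uqcrc1, of rank 30 in bulk and 70 in cells, where it had 4 reads in all, and uqcr10, of rank 53 in bulk and 14 in cells. Read protocols differ between the data types, and the source of these gaps was not tested.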

How the data were processed

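Bulk RNA-seq was made on animal caps after depletion of ribosomal RNA and read as pairs on a NextSeq 500, per the labels' protocols. The deposited tables give estimated counts and TPM per target, per the file headers, together with target lengths. The submitters' processing notes name STAR 2.5.0 with no role, and the genome build and annotation are not given in the sources used here, so no coordinates are printed. The single-cell tables hold read counts per gene and cell as deposited, from a modified Tang protocol per the labels, with no molecular identifiers stated. The labels speak of 200 picked cells, and 100 cells were analysed here. Reads outside genes (23.6% to 32.2% by library) and reads not aligned (37.7% to 48.7%) stayed out of library sizes and tests.

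Of the estimated counts 16.6% were fractional, and all were rounded. A single edgeR 4.0.16 model (R 4.3.3) of all 16 bulk libraries held 1 coefficient per group. It used filterByExpr, TMM scaling and the robust quasi-likelihood test, with Benjamini-Hochberg adjustment over 14176 genes. Single-cell counts were summed over the 25 cells of each library and tested alike over 8898 genes. Cells were picked singly, and no doublet caller was run. Calls use an adjusted p under 0.05. Scaled CPM are divided by library size times TMM factor, fold changes are fitted, and SEs are those of the fit. TMM factors ran from 0.794 to 1.25. TPM differences use log2(TPM + 1). Alternatives were DESeq2 1.42.0, other size factors, no filter on low counts, the libraries compared alone, library sets or replicate numbers as a term, and each library left out. A length trend, deposited TPM, comparisons within library sets and the cell minimum were chosen after seeing the data.

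The members, the lists and the tests were chosen with earlier results of these data known. Named genes were those with the 2 highest and 2 lowest changes in a comparison, the highest and lowest levels in a complex, the 4 most and 4 least variable, alternative forms of a subunit and the untested member. Changes were ranked among members with an average log2 CPM from the fit of at least 2. Variability was ranked among members with a mean log2 CPM of at least 2. Chosen after their values were seen were cox7b, ndufv1, atp5a1, ndufa8, cycs and COX3. Names follow the files, and 71 of 72 matched a RefSeq symbol or synonym of the UCB_Xtro_10.0 table, with the ending -like removed where present. ATAC-seq was not used here.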

Additional observations from a re-analysis of the deposited data

How the results depend on the processing

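The count of members called by edgeR stayed at 0 in all 12 comparisons when each library was left out, with other size factors, with the length trend removed and with subunits only. It also stayed at 0 in the 11 cap comparisons with only the libraries compared and with library sets as a term, which were not run for BL against AC. Without a filter on low counts it became 6 in Eomes against WI, 5 in Otx2, 3 in Irx3+Otx2, 6 in Irx3+Otx2 against Irx3, 1 in Irx3+Otx2 against Otx2 and 1 in Foxb1+Eomes against Eomes. With DESeq2 it became 3, 2, 1 and 1 in the first 4 of these. The cause was not tested. No share of all genes called was taken without the filter, so the counts in that setting cannot be set beside a background. Without a filter the change of ndufb4 was -2.29 in Eomes, -2.15 in Otx2 and -1.96 in Irx3+Otx2, and it passed the threshold.

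The median of all genes with the length trend removed was -0.02 in Eomes against WI and 0.06 in BL against AC cells. The member median in that setting was -0.29 and 0.11. In deposited TPM it was 0.16 in Eomes, 0.17 in Otx2, -0.12 in Irx3+Otx2, -0.30 in Foxb1+Eomes against Eomes, -0.28 in Irx3+Otx2 against Irx3 and -0.32 in Irx3+Otx2 against Otx2, where the median of all genes moved too. Leaving out each library in turn gave -0.67 to 0.21 for Foxb1+Eomes against WI, -0.14 to 0.37 for Irx3, -0.47 to 0.35 for Foxb1+Eomes against Foxb1, -0.15 to 0.73 against Eomes, and -0.90 to -0.33 for Irx3+Otx2 against Irx3. It gave -0.72 to -0.43 for Eomes, -0.68 to -0.40 for Otx2, -0.61 to -0.38 for Irx3+Otx2, -0.32 to -0.0063 for Foxb1, -0.088 to 0.28 for Lhx8 and 0.20 to 0.69 for BL against AC cells.

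Leaving out each library in turn turned the direction of some named genes. The range was -1.68 to 0.35 for ndufa5 and -0.20 to 1.002 for ndufaf5 in Foxb1, -1.37 to 0.66 for ndufa5, -0.74 to 0.059 for sdhc and -0.044 to 1.30 for atp5j2 in Irx3, and -0.78 to 0.22 for ndufb1 in Lhx8. With library sets as a term ndufs5 in Otx2 became 0.96.

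Groups share replicate numbers, but nothing in the labels pairs the libraries. The correlation of deviations between libraries of the same number ran from -0.244 to 0.725 over the pairs of cap groups and was 0.199 between AC and BL. The highest was that of Eomes with Otx2, whose libraries all lie in the last library set. With the replicate block no member was called and the member median was -0.56 in Eomes against WI, -0.48 in Otx2 and 0.27 in BL against AC cells.

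With 2 libraries a group, members of low counts had wide errors, such as a standard error of 0.52 log2 units for ndufb1 and 1.04 for atp5s in Eomes, and the exact test of a share cannot go below p = 0.3333.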

Other observations

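Subunits of the same complexes also stood outside the rule. The RefSeq table pairs the identifier LOC100492979 with uqcrh, the hinge protein of complex III, and LOC100491395 with cox7a1, the heart and muscle form of subunit 7a in mammals. The first had a median of 219 TPM over the 16 bulk libraries, within a range of 140.4 to 399. That would place it among the most abundant members in bulk. In single cells it had 3 and 2 reads in the AC libraries and 5 in each BL library. Its levels were 399 and 140.4 TPM in WI, 177 and 158 in Eomes, and 154 and 176 in Otx2, so that the WI libraries surrounded both groups. Its log2 change in scaled counts was -1.37 ± 0.43 in Eomes, with an edgeR adjusted p of 0.137. The second had a median of 1.099 TPM, with a highest level of 2.01 TPM.

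The inhibitor of the ATP synthase, atpif1, had 49.0 and 46.7 TPM in WI, 34.7 and 40.2 in Eomes, and 27.0 and 39.0 in Otx2. Its log2 change was -1.07 ± 0.36 in Eomes and -1.19 ± 0.36 in Otx2, with edgeR adjusted p of 0.147 and 0.177. The cytochrome c listed as cyct ran the other way in level, with 12.4 and 13.2 TPM in WI, 29.8 and 37.7 in Eomes, and 26.0 and 36.8 in Otx2, whereas cycs had 439 and 280 TPM in WI and 265 and 219 in Eomes. In TPM the median of all tested genes was itself 0.66 log2 units higher in Eomes and 0.59 in Otx2. Replicate 2 of Foxb1+Eomes, Irx3, Irx3+Otx2 and Lhx8 also had 29.1, 26.5, 32.0 and 22.6 TPM of cyct. Their replicate 1 had 10.7, 9.87, 7.97 and 8.97 TPM. These 4 genes were chosen after their values were seen.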
